A study of Homo sapiens with 6 samples.

Results

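Matrix metalloproteinases (MMPs) and the tissue inhibitors of metalloproteinases (TIMPs) were examined in the RNA-Seq counts of A549 cells, an established human lung adenocarcinoma line. The 10 genes were taken by symbol from the deposited count table of 23180 gene symbols and comprise TIMP1, TIMP2, TIMP3, MMP1, MMP2, MMP7, MMP14, MMP15, MMP24 and MMP28. The study depleted KMT9α, the catalytic subunit of the histone H4 lysine 12 methyltransferase KMT9, which is encoded by N6AMT1. In total 6 samples were sequenced, 3 from cells transfected with siControl and 3 from cells transfected with siKMT9α#1. The cells of both groups are labelled as wild type and as being at passage 11. By the study's methods they were treated with 65 nM siRNA and collected 3 days later, and the number of the siRNA is taken from those methods as well. Each group rests on a single siRNA in a single cell line, so that effects of the siRNA sequence itself cannot be told apart from those of KMT9α loss.

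MMPs are zinc-dependent endopeptidases that cleave collagens, laminins, fibronectin and many cell surface proteins. They are made as inactive precursors whose propeptide has to be removed. Most are secreted, such as MMP1, MMP2, MMP7 and MMP28, whereas MMP14, MMP15 and MMP24 are membrane-type enzymes anchored at the cell surface. TIMPs bind the active site of the mature enzymes. TIMP2 has an additional role, since it bridges MMP14 and the precursor of MMP2 in the complex in which MMP2 is activated.

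KMT9α mRNA (N6AMT1) fell from 10.8 ± 0.621 CPM (SD, n = 3) to 3.14 ± 0.245 CPM (SD, n = 3), where CPM is the count scaled to a common library size with TMM factors. The total counts over 1 transcript per gene ranged from 15551778 to 18568639.5 in the siControl samples and from 13740097 to 19832395.5 in the siKMT9α#1 samples. In edgeR's quasi-likelihood test, 13877 genes passed the filter on low counts. Of these, 37.1% were higher and 38.5% were lower after knock-down at an adjusted p under 0.05, and at the study's threshold (p below 1e-08 and a log2 fold change of more than 0.26 in size) 13.5% were higher and 10.7% lower. The samples of both groups did not overlap in 77.0% of the genes tested. Among epithelial marker genes, KRT7 had 1259 ± 64.2 CPM with siControl and 1268 ± 51.3 CPM with siKMT9α#1 (SD, n = 3 each), whereas the sum over all 6 epithelial markers was 4399 to 4883 CPM with siControl and 2941 to 3129 CPM with siKMT9α#1. Of these 6 markers 4 were lower (EPCAM, KRT8, KRT18 and KRT19) and CDH1 was higher. EPCAM had only 3.86 ± 0.395 CPM with siControl (SD, n = 3). The 7 fibroblast markers, cells that are rich in MMPs and TIMPs, summed to 10.9 to 13.3 CPM with siControl and to 6.90 to 8.26 CPM with siKMT9α#1, with COL1A2 at 0 counts and DCN at no more than 1 count in any sample. The 4 endothelial markers summed to at most 0.833 CPM in any sample. The 6 leukocyte markers summed to 81.4 to 88.2 CPM with siControl and to 29.0 to 30.4 CPM with siKMT9α#1, nearly all of it CD68, a lysosomal protein that epithelial cells also express, while CD3E and MS4A1 were at 0 counts. The part of these marker changes in the results that follow was not tested. In bulk samples of a single cell line such as these, fewer cells expressing a gene and less of its RNA per cell cannot be told apart.

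Of the 10 genes, 8 passed the filter on low counts and TIMP3 and MMP28 did not. MMP7, MMP1, TIMP2 and MMP24 were higher after knock-down at an adjusted p under 0.05, and none was lower in edgeR's quasi-likelihood test. Of the 8 genes tested, 0 were lower at an unadjusted p under 0.05, and 0 members were called lower with DESeq2 or edgeR's likelihood-ratio and exact tests. TIMP1 was called lower when scaled by library size only (edgeR adjusted p = 0.0222), and in the edgeR fit without the filter MMP28 had an unadjusted p of 0.0374 and an adjusted p of 0.0617. With offsets for GC content and transcript length TIMP1 was called higher (edgeR adjusted p = 7.64e-05), so that 5 members were higher. At the study's threshold, MMP7 and TIMP2 were higher in the quasi-likelihood test. With edgeR's likelihood-ratio or exact test, MMP1 and MMP24 were past it as well. The study names edgeR but not which of its tests was used. The share of all genes called higher is close to the share called lower, and the 4 calls among these genes stand beside the 37.1% given above for all genes tested.

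The promoter sequences of 6 of the 10 genes were held in the RefSeq promoter table (GRCh38.p14, 250 bases before to 50 after the annotated start), and those of TIMP2, MMP1, MMP2 and MMP28 were not. Sequences are shown for MMP7, the member with the largest change, for MMP24, which rose less, and for TIMP1, which was not called. They were searched on both strands for TGAGTCA (the AP-1 element), AGGAAG (the PEA3 or ETS element), CTTTGA (the TCF/LEF core) and TATAAA (the TATA box). These 4 motifs were a fixed set and not a search over all known motifs. The matches per promoter depend on that choice, so that a difference in matches between these genes cannot be read as a trait of any of them. Capitals mark the matches to these 4 motifs or their reverse complements, and all sequences are written 5′ to 3′ on the strand of the gene.
MMP7, chr11:102530698-102530997, minus strand: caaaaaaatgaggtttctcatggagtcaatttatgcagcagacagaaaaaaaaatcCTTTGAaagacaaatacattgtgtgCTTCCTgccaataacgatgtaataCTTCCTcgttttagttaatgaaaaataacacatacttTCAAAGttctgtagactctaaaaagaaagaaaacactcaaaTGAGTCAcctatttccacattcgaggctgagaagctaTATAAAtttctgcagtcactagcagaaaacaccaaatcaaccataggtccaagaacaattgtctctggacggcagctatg
MMP24, chr20:35226440-35226739, plus strand: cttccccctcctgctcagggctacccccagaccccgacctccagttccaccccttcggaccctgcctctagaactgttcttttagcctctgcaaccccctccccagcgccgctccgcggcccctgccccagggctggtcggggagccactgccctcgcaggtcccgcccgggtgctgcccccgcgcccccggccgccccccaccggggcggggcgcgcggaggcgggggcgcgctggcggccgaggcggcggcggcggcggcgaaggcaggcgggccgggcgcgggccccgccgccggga
TIMP1, chrX:47582186-47582485, plus strand: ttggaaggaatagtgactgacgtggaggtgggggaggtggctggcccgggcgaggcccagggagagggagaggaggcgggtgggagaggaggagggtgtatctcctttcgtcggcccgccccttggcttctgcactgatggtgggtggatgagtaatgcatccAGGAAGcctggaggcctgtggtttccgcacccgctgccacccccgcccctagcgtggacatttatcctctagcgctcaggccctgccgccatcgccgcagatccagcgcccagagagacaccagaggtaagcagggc

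The MMP7 promoter held all 4 motifs. TGAGTCA began 67 bases and TATAAA 30 bases upstream of the start. CTTTGA occurred at 194 and, on the opposite strand, at 108 bases upstream, and AGGAAG occurred on the opposite strand at 169 and 145 bases upstream, and no match overlapped another. Of all 35116 promoters in the table, 4.95% held TGAGTCA, 33.6% AGGAAG, 12.9% CTTTGA and 11.5% TATAAA. In the TIMP1 promoter there was 1 match, AGGAAG at 87 bases upstream. No match to the 4 motifs was found in the windows of MMP24, TIMP3, MMP14 and MMP15. The windows also differed in base composition. That of MMP7 had 35.7% G and C with 4 CpG dinucleotides, against 80.0% with 37 for MMP24 and 75.3% with 39 for MMP15, and against a median of 58.7% and 14 over all promoters.

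Among the inhibitors, TIMP2 rose and TIMP1 was not called. TIMP2 (NM_003255, chromosome 17 of hg19 from 76849059 to 76921472, minus strand, 5 exons) is a secreted inhibitor of most MMPs. It had 320.6, 286.8 and 294.6 CPM in the siControl samples and 597.3, 613.5 and 674.0 CPM in the siKMT9α#1 samples. All siKMT9α#1 samples thus lay above all siControl samples, and the fold change was 2.09 (log2 fold change 1.06 with a standard error of 0.06, edgeR adjusted p = 1.92e-12). The study itself shows TIMP2 among its example targets from RNA-Seq, so that this rise is not independent of the study's result. It also measured TIMP2 by mass spectrometry, western blot and qRT-PCR, which were not used here. The span of TIMP2 overlaps CEP295NL on the same strand, which had 1 to 6 counts per sample against 4647.5 or more for TIMP2.

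TIMP1 (NM_003254, chromosome X from 47441690 to 47446190, plus strand, 6 exons) is likewise a secreted inhibitor and has growth-modulating activity of its own. It had 130.4, 119.6 and 125.7 CPM with siControl and 125.6, 122.2 and 122.7 CPM with siKMT9α#1. The values of the groups overlapped, and the log2 fold change of -0.02 had a 95% confidence interval of -0.12 to 0.08 (edgeR adjusted p = 0.706). This value moved with the scaling. When scaled by library size only, without TMM factors, it was -0.13 (adjusted p = 0.0222), and with offsets for GC content and transcript length it was 0.24 (adjusted p = 7.64e-05). TIMP1 lies within the span of SYN1 on the opposite strand, which had at most 4 counts in any sample.

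TIMP3 (NM_000362, chromosome 22 from 33196802 to 33259028, plus strand), the inhibitor that binds to the extracellular matrix, was barely detected. It had 4, 2 and 5 counts with siControl and 3, 6.5 and 9 counts with siKMT9α#1, with overlapping groups. In the fit without the filter its adjusted p was 0.180, so that a difference was not detectable at this depth. TIMP3 lies within SYN3, on the opposite strand, which had at most 2 counts.

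Per transcript length, the order of the inhibitors changed. In RPKM (CPM per kilobase of transcript), TIMP1 had 138.4 ± 5.98 and TIMP2 82.5 ± 4.85 with siControl (SD, n = 3 each). With siKMT9α#1, TIMP2 had 172.3 ± 11.1 and TIMP1 136.5 ± 2.03 (SD, n = 3 each). The ranges of TIMP1 and TIMP2 did not overlap in either group. TIMP2 made up 37.9%, 37.3% and 36.8% of the summed RPKM of TIMP1, TIMP2 and TIMP3 in the siControl samples and 54.1%, 55.5% and 57.7% in the siKMT9α#1 samples. This sum was 210.8 to 232.0 RPKM with siControl and 302.7 to 320.5 RPKM with siKMT9α#1.

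**Figure D1:**
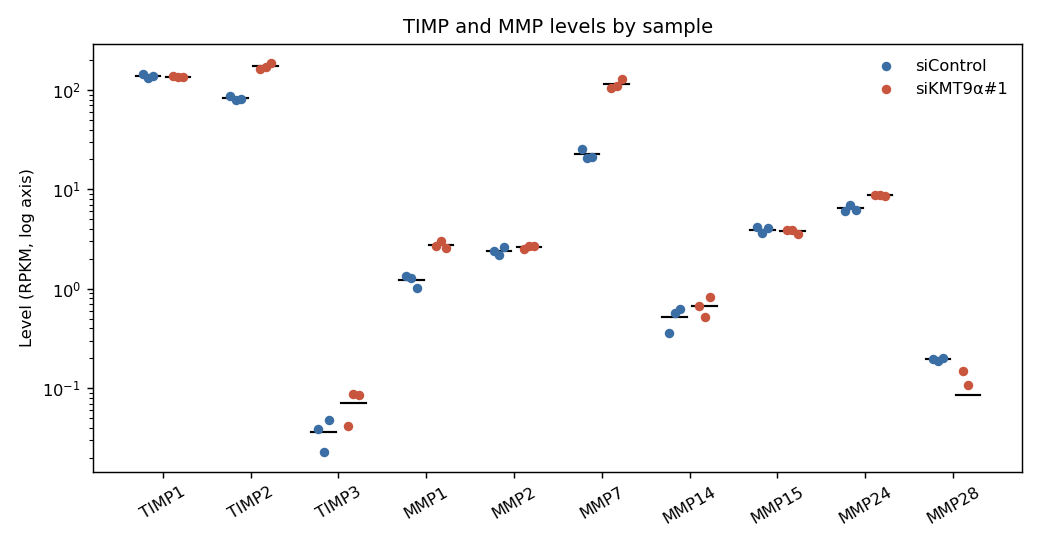
Level of each of the 10 genes in RPKM (log axis) in the 3 siControl samples (blue) and the 3 siKMT9α#1 samples (red), with points for samples and black lines for group means. MMP7, TIMP2, MMP1 and MMP24 lay higher in every siKMT9α#1 sample, TIMP1, MMP2 and MMP15 overlapped, and MMP28 had 0 counts in siKMT9α#1 replicate 1, which a log axis cannot show.

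The secreted MMPs were led by MMP7, or matrilysin, a small enzyme without the hemopexin domain of most other MMPs that is made by epithelial cells. MMP7 (NM_002423, chromosome 11 from 102391239 to 102401478, minus strand, 6 exons) had 28.2, 23.0 and 23.6 CPM with siControl. It had 117.1, 120.2 and 141.5 CPM with siKMT9α#1, so that the groups were widely apart. The fold change was 5.08 (log2 fold change 2.34 with a standard error of 0.08, edgeR adjusted p = 3.16e-15). Of all genes tested, 122 including MMP7 had a log2 fold change as high or higher. The promoter of MMP7, shown above, had matches to all 4 motifs of the fixed set, which depend on the choice of that set. A link between these matches and the rise was not tested.

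MMP1, the interstitial collagenase that cleaves fibrillar collagens, was expressed at a much lower level. Its transcript NM_002421 spans positions 102660641 to 102668966 of chromosome 11 (minus strand, 10 exons). It had 51.5, 42.5 and 39.5 counts with siControl and 72.5, 84 and 100.5 counts with siKMT9α#1, that is 2.73, 2.62 and 2.05 CPM against 5.48, 6.13 and 5.25 CPM. The groups did not overlap, and the fold change was 2.25 (log2 fold change 1.17 with a standard error of 0.15, edgeR adjusted p = 1.30e-06). A second transcript, NM_001145938, had a log2 fold change of 1.18 but shares most of its reads with the first. MMP1 overlaps the pseudogene WTAPP1 on the opposite strand. WTAPP1 had 0.5, 4 and 0.5 counts with siControl and 5.5, 7.5 and 4.5 with siKMT9α#1, and since the strand setting of the counting is not given, its reads and those of MMP1 cannot be told apart where they overlap.

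MMP2, gelatinase A, did not pass the test. It had 8.49, 7.59 and 9.25 CPM with siControl and 8.80, 9.46 and 9.49 CPM with siKMT9α#1, in overlapping ranges. Its log2 fold change was 0.13 with a 95% confidence interval of -0.09 to 0.35 (edgeR adjusted p = 0.274). The second MMP2 transcript, NM_001127891, gave the same log2 fold change of 0.13. MMP28, or epilysin, was near the limit of detection with 9, 7.5 and 9.5 counts with siControl and 0, 5 and 5 counts with siKMT9α#1. The count of 0 allows up to 0.227 CPM in that sample (3 counts, counting error only), against 0.463 to 0.494 CPM in the siControl samples. In this transcript, NM_024302, MMP28 was lower in each siKMT9α#1 sample but did not pass the filter, and without the filter its edgeR adjusted p was 0.0617. The second MMP28 transcript, NM_001032278, had 13, 0 and 7.5 counts with siControl and 1, 5 and 3 counts with siKMT9α#1, in overlapping ranges.

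Of the membrane-type MMPs, MMP24 rose and MMP14 and MMP15 were not called. MMP24, or MT5-MMP, is best known from the nervous system. Its transcript NM_006690 spans positions 33814539 to 33864804 of chromosome 20 (plus strand, 9 exons). It had 25.9, 30.3 and 27.0 CPM with siControl and 37.8, 37.9 and 37.3 CPM with siKMT9α#1, without overlap. The fold change of 1.36 was the smallest among the 4 members called (log2 fold change 0.44 with a standard error of 0.07, edgeR adjusted p = 7.77e-06). The annotated gene MMP24OS runs through the span on the opposite strand and was not analysed here under its own symbol, so that reads from it could have been counted for MMP24 if strand was not used.

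MMP14, or MT1-MMP, the activator of the MMP2 precursor, had 24, 32.5 and 42.5 counts with siControl and 31, 25 and 55.5 counts with siKMT9α#1. The groups overlapped in CPM, and the log2 fold change of 0.42 had a 95% confidence interval of -0.06 to 0.90 (edgeR adjusted p = 0.102). This value moved in both directions with single samples. Without siControl replicate 3 the log2 fold change was 0.60 (edgeR adjusted p = 0.0443), and without siKMT9α#1 replicate 2 it was 0.57 (edgeR adjusted p = 0.0432). Without siControl replicate 1 it was 0.23 (edgeR adjusted p = 0.373), and without siKMT9α#1 replicate 3 it was 0.21 (edgeR adjusted p = 0.485). MMP15, or MT2-MMP, had 345, 259 and 345.5 counts with siControl and 229.5, 236 and 297 counts with siKMT9α#1, or 17.4 ± 1.25 and 16.7 ± 1.02 CPM (SD, n = 3 each). The groups overlapped in CPM, with a log2 fold change of -0.07 and a 95% confidence interval of -0.25 to 0.11 (edgeR adjusted p = 0.451).

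**Figure D2:**
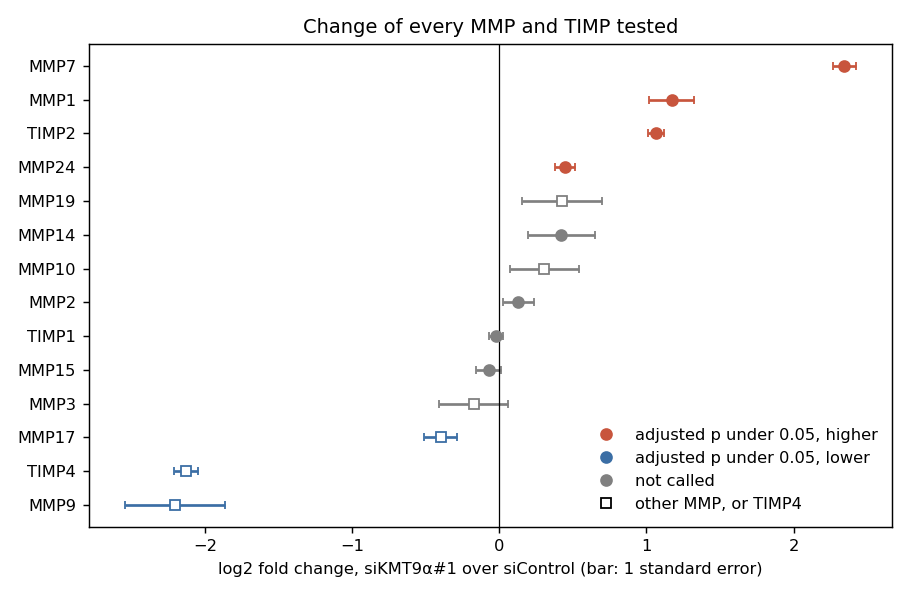
Log2 fold change of siKMT9α#1 over siControl for every MMP and TIMP that passed the filter on low counts, with bars of 1 standard error from edgeR. MMP7 (2.34), MMP1 (1.17), TIMP2 (1.06) and MMP24 (0.44) are called higher, and MMP9, TIMP4 and MMP17, which are not among the 10 genes, are called lower. MMP9 passed the filter only through its siControl samples.

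Per transcript length, MMP7 stood first among the MMPs in both groups, at 22.5 ± 2.54 RPKM with siControl and 114.0 ± 12.0 RPKM with siKMT9α#1 (SD, n = 3 each). With siControl the MMPs followed in the order MMP24 (6.43 RPKM), MMP15 (3.94 RPKM), MMP2 (2.41 RPKM), MMP1 (1.21 RPKM), MMP14 (0.520 RPKM) and MMP28 (0.195 RPKM), with no overlap between neighbours in this order. With siKMT9α#1, MMP1 (2.76 RPKM) came before MMP2 (2.64 RPKM), a pair whose samples overlapped. The samples of MMP28 and TIMP3, the lowest genes, overlapped as well. MMP7 made up 58.3% to 63.7% of the summed RPKM of the 7 MMPs in the siControl samples and 85.1% to 87.4% in the siKMT9α#1 samples. The sum itself was 35.6 to 39.9 RPKM with siControl and 124.2 to 146.1 RPKM with siKMT9α#1.

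**Figure D3:**
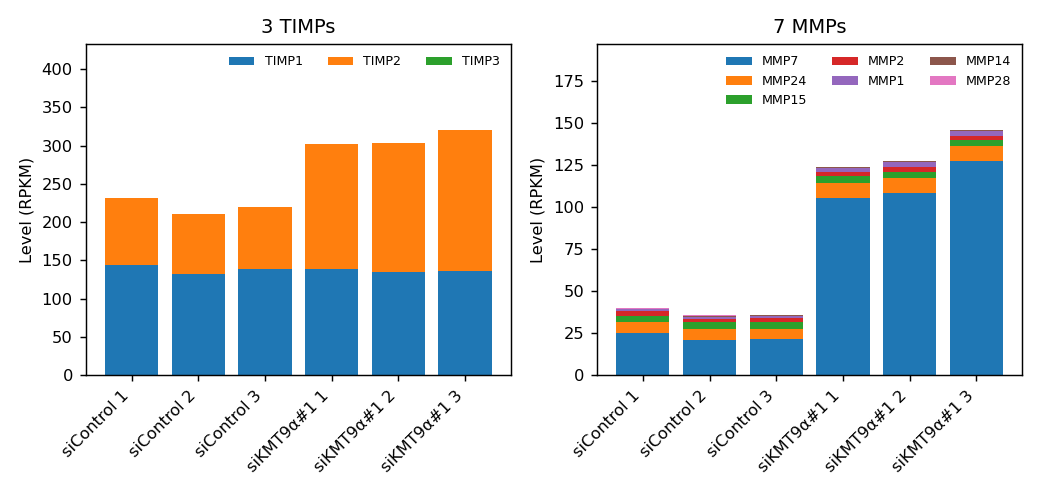
Stacked levels in RPKM of TIMP1, TIMP2 and TIMP3 (left) and of the 7 MMPs (right) in each of the 6 samples. TIMP2 takes 36.8% to 37.9% of the TIMP sum with siControl and 54.1% to 57.7% with siKMT9α#1, and MMP7 makes up most of the MMP sum in every sample.

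The levels of inhibitors and enzymes were set against each other as log2 ratios of their RPKM values, as a description of mRNA and not of protein or activity. TIMP2 to MMP2 was 5.18, 5.18 and 4.94 with siControl and 6.03, 5.96 and 6.09 with siKMT9α#1. TIMP2 to MMP14 was 7.92, 7.11 and 7.01 with siControl and 7.94, 8.34 and 7.81 with siKMT9α#1. The first ratio was higher in every siKMT9α#1 sample, whereas the second overlapped between the groups. TIMP1 to MMP1 went the other way, with 6.75, 6.68 and 7.11 with siControl and 5.69, 5.49 and 5.71 with siKMT9α#1. MMP24 to MMP15 was 0.53, 0.96 and 0.62 with siControl and 1.16, 1.17 and 1.30 with siKMT9α#1, again without overlap. TIMP3 to MMP14, which rests on fewer than 10 counts of TIMP3 per sample, was -4.66 to -3.22 with siControl and -4.01 to -2.58 with siKMT9α#1.

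The remaining MMPs and TIMP4 comprise 18 genes, of which 6 passed the filter. TIMP4, MMP9 and MMP17 were lower, and none was higher in edgeR's quasi-likelihood test, with 0 genes higher also at an unadjusted p under 0.05. Of these, MMP9 passed the filter only through its siControl samples. Over all genes tested, 38.5% were called lower and 37.1% higher at an adjusted p under 0.05. TIMP4, an inhibitor with a more tissue-restricted expression than TIMP1 and TIMP2, had 48.6, 46.8 and 48.4 CPM with siControl. It had 12.0, 9.09 and 11.6 CPM with siKMT9α#1, and fell by 2.13 on the log2 scale (with a standard error of 0.08, edgeR adjusted p = 2.17e-14). TIMP2 and TIMP4 therefore changed in opposite directions. When TIMP4 was added to the inhibitors, the summed level was 239.7 to 262.0 RPKM with siControl and 309.0 to 327.6 RPKM with siKMT9α#1.

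MMP9, gelatinase B, had 1.30, 1.17 and 1.51 CPM with siControl and 0.227, 0.438 and 0.209 CPM with siKMT9α#1. The groups did not overlap, and MMP9 fell by 2.20 on the log2 scale (with a standard error of 0.34, edgeR adjusted p = 9.34e-06), from 3 to 29 counts per sample. MMP17, a membrane-type enzyme with a lipid anchor, had 10.9 ± 1.13 CPM with siControl and 8.19 ± 0.732 CPM with siKMT9α#1 (SD, n = 3 each). It fell by 0.40 on the log2 scale (edgeR adjusted p = 0.00308), and the value was -0.19 with offsets for GC content and length, where it was not called (adjusted p = 0.0981). MMP3, MMP10 and MMP19 were not called, with log2 fold changes of -0.17, 0.31 and 0.43. Without siKMT9α#1 replicate 2, MMP19 was called at 0.64 (edgeR adjusted p = 0.0398). It was not called with any other sample left out, and was 0.24 without siKMT9α#1 replicate 1 (edgeR adjusted p = 0.490). MMP11, MMP12, MMP13, MMP16, MMP20, MMP21, MMP23A, MMP23B and MMP25 did not pass the filter, with at most 18 counts in any sample. Among them 4 genes did not overlap between the groups, against 77.0% of the genes that were tested. MMP16 (0.133 to 0.468 CPM with siControl, 0.584 to 0.863 CPM with siKMT9α#1) and MMP25 (0.265 to 0.468 and 0.642 to 0.941 CPM) had the higher values with siKMT9α#1. MMP11 (0.312 to 0.584 CPM with siControl, 0.146 to 0.302 CPM with siKMT9α#1) and MMP12, which had at most 1 count with siControl and 0 counts with siKMT9α#1, had the lower values. MMP8, MMP26 and MMP27 had 0 counts in all samples, which allows up to 0.156 to 0.227 CPM per sample.

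Other proteases of the metzincin family were changed in both directions. Of 31 ADAM and ADAMTS genes, 19 passed the filter, 11 were higher and 3 lower (37.1% and 38.5% of all genes tested), with a median log2 fold change of 0.59 against -0.01 for all genes tested. The largest increases were those of ADAM12 (log2 fold change 2.63), ADAMTS9 (2.30) and ADAM10 (2.11), the last a sheddase of Notch and of growth factor precursors, at 54.1 ± 6.69 CPM with siControl and 233.7 ± 15.4 CPM with siKMT9α#1 (SD, n = 3 each). The genes called lower were ADAM23 (-0.63), ADAM11 (-0.57) and ADAMTS16 (-0.38), the last of which was not called with DESeq2 (adjusted p = 0.0965).

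Genes that act on MMPs were looked up in a list of 20 activators, binding partners and other inhibitors. Of these 18 passed the filter, 11 were higher and 3 lower, beside 37.1% and 38.5% of all genes tested, with a median log2 fold change of 1.07. With the library size alone, 6 of them were called lower. CAV1 (caveolin-1, log2 fold change 2.53), CLDN1 (claudin-1, 1.98) and BSG (1.81) had the largest increases. BSG encodes basigin, also named EMMPRIN for its induction of MMPs in neighbouring cells, and rose from 173.2 ± 3.37 to 608.8 ± 10.3 CPM (SD, n = 3 each). LCN2, which forms a complex with MMP9, was lower (-1.91), as were PCSK5 (-0.55) and FURIN (-0.39), proprotein convertases of the kind that cleave the propeptide of membrane-type MMPs. The convertases PCSK6 (1.26) and PCSK7 (0.25) were higher. With DESeq2 neither PCSK5 (adjusted p = 0.132) nor PCSK7 (adjusted p = 0.0902) was called. RECK, a membrane-anchored inhibitor of MMPs, had a log2 fold change of -0.25 (edgeR adjusted p = 0.0501) and was not called. It was called lower when scaled by library size only (-0.36, edgeR adjusted p = 0.00792) and with offsets for GC content and length (-0.35, edgeR adjusted p = 0.00377). With DESeq2 (-0.25, adjusted p = 0.154) and with RLE factors (-0.24, edgeR adjusted p = 0.0600) RECK was not called.

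The matrix and surface proteins that MMPs can cleave included many genes called higher. Of 36 genes listed, 30 passed the filter, 24 were higher and 5 lower, where the shares over all genes were 37.1% and 38.5%, with a median log2 fold change of 1.23. The largest increases were those of the basement membrane collagens COL4A1 (log2 fold change 2.21), COL4A5 (1.91) and COL4A6 (1.86), of which COL4A1 rose from 32.1 ± 3.52 to 149.4 ± 3.93 CPM (SD, n = 3 each). VTN (vitronectin, -1.93), SPARC (-1.05) and LAMB3 (-0.89) had the largest decreases. The fibrillar collagens that MMP1 cleaves were low, with COL1A2 at 0 counts and COL1A1 at 4.26 ± 0.310 CPM with siControl and 2.80 ± 0.0637 CPM with siKMT9α#1 (SD, n = 3 each).

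Transcription factors with known sites in MMP promoters formed the last list. All 19 passed the filter, 14 were higher and 4 lower (all genes tested, 37.1% and 38.5%), with a median log2 fold change of 0.67. RUNX2 (log2 fold change 2.31), FOSB (2.30) and FOS (2.24) had the largest increases. TWIST1 (-0.76), JUND (-0.75) and ETV5 (-0.42) had the largest decreases. Of the AP-1 factors in the list, FOS, FOSB, FOSL1 (1.73), FOSL2 (0.52), JUN (0.77) and JUNB (1.16) were higher and JUND was lower. Binding to any promoter was not measured in these samples. SP1, at 0.16 in this fit, had a log2 fold change of -0.02 with offsets for GC content and length.

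**Figure D4:**
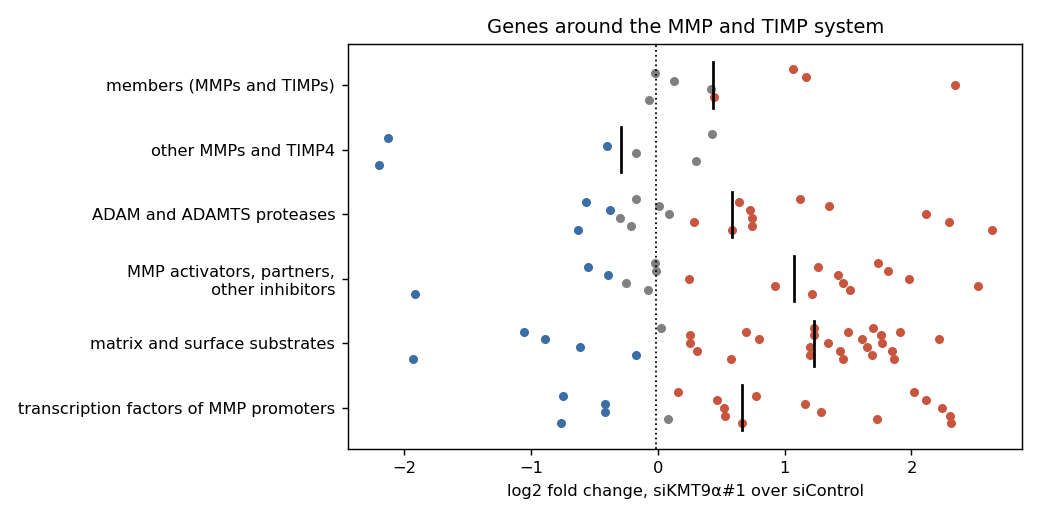
Log2 fold change of every gene that passed the filter in the 10 MMP and TIMP genes and in 5 related lists, with red for genes called higher, blue for genes called lower and grey for genes not called. Black lines mark the median of each list, from -0.29 for the other MMPs and TIMP4 to 1.23 for the substrates, and the dotted line marks the median of all genes tested, -0.01.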

How the data were processed

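RNA-Seq was analysed for 3 siControl and 3 siKMT9α#1 samples of A549 cells. The authors aligned reads to hg19 with STAR 2.5 and used HOMER to count reads per RefSeq transcript, depositing unnormalized estimated counts per transcript in steps of 0.5. Columns of a fold change (ratio), p-values and adjusted p-values that the authors deposited from their own edgeR comparison were not used. Strand and counting options are not given in the sources used here.

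For each symbol the transcript with the highest total count over the 6 samples was kept. The counts were rounded and fitted on the whole table with edgeR 4.0.16 in R 4.3.3, using TMM factors (0.9636 to 1.042), filterByExpr and the two-sided quasi-likelihood test, and p-values of 13877 genes were adjusted after Benjamini and Hochberg (Benjamini-Hochberg). Standard errors are the absolute log2 fold change divided by the square root of F. RPKM is CPM per kilobase of the deposited transcript length. For a single gene, an exact permutation test of 3 against 3 samples cannot give a p below 0.1, and it gave 0.1 for TIMP2, MMP1, MMP7 and MMP24. Replicates are labelled as biological, and their counts differed by more than sampling noise (chi-square per gene 1.358 to 5.254, against 106.6 to 140.5 between groups). Same-numbered samples did not deviate together (correlations -0.0788, 0.022 and -0.0802 for replicates 1, 2 and 3), so that the numbers were not taken as pairs.

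The members and lists were chosen with earlier results of these data known. All members are named, together with every other MMP and TIMP4, genes of the deposited table whose span overlaps that of a member, and from each related list, up to 3 genes per direction with the largest called changes and a mean of at least 1 CPM in one group. N6AMT1, marker genes, RECK, COL1A1, COL1A2, SP1, PCSK6, PCSK7, JUN, JUNB, FOSL1, FOSL2 and MMP24OS are named in addition, those from RECK on after their values were seen. Overlapping genes that the annotation gives without a symbol are not named. Positions and strands are from GENCODE v44 lifted to GRCh37, and GC contents, from its transcripts, were known for 93.1% of the genes tested. Results were recomputed with each sample left out, with the replicate block, over every transcript, with doubled counts, with a minimum of 10 counts per sample or without a filter, with RLE factors or library size only, and with DESeq2 1.42.0 or the exact and likelihood-ratio tests of edgeR. Offsets for GC content and length were added after seeing the data.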

Additional observations from a re-analysis of the deposited data

How the results depend on the processing

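MMP7, TIMP2, MMP1 and MMP24 were called higher under every alternative tried. Leaving out each sample in turn gave log2 fold changes of 2.25 to 2.46 for MMP7, 1.01 to 1.13 for TIMP2, 1.06 to 1.28 for MMP1 and 0.42 to 0.52 for MMP24. TIMP1 ranged from -0.044 to 0.027 and was reversed without siControl replicate 1 (0.027) and with offsets for GC content and length (0.24). With these offsets TIMP1 was called higher, and 5 members were higher in place of 4. Without siControl replicate 3 or siKMT9α#1 replicate 2 the number was 5 as well, through MMP14. The library size alone shifted all genes by -0.105 on the log2 scale and called 1 member lower, TIMP1. The likelihood-ratio test, the exact test and the fit without a filter each put 4 members past the study's threshold, in place of 2. Of all genes, 1878 were higher and 1479 lower at that threshold, against 3086 and 2876 with the likelihood-ratio test, 3071 and 2853 with the exact test, 3184 and 2886 without a filter, 3831 and 2937 over every transcript, and 1400 to 2287 and 926 to 1798 with a sample left out, the fewest lower without siKMT9α#1 replicate 2. Over every transcript 9288 were called higher and 9609 called lower by adjusted p, since each transcript then counts, against 5150 and 5342 genes. With the replicate block 974 genes were lower at the study's threshold, and the block changed no call among the 8 members tested, with a log2 fold change of 1.06 for TIMP2 and 2.34 for MMP7. With the library size alone 6 of the MMP activators, partners and other inhibitors were lower, in place of 3. Depth limits TIMP3, MMP28 and MMP14, which had at most 55.5 counts in any sample. The cause of these shifts was not tested.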
